A study of Rattus norvegicus with 6 samples.

Results

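The 9 genes described here encode transcription factors of cytokine and interferon signalling: Stat2, Stat3 and Stat6 of the STAT family, Irf1, Irf2, Irf3, Irf7 and Irf9 of the interferon regulatory factor (IRF) family, and the repressor Bcl6. They were taken by gene symbol from a table of 19289 rat features, and all 9 were found. The cells were INS-1E, an insulin-secreting line derived from a rat insulinoma, with 3 libraries kept with uric acid (UA) for 24 hours and 3 untreated libraries. All 6 libraries come from the same unmodified line. The labels give no uric acid concentration, no vehicle, and no word on whether the replicates came from separate cultures, so the p-values reflect the spread among these 6 libraries, which may be technical.

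STAT proteins wait in the cytoplasm until a JAK kinase bound to a cytokine receptor phosphorylates them, and then enter the nucleus as pairs. STAT2 and IRF9 belong to the complex that switches on interferon-stimulated genes, whereas IRF3 and IRF7 are activated by kinases downstream of sensors of viral nucleic acid. IRF1 is itself induced by interferon-gamma and cytokines, and in beta cells it has been studied for its part in their response to inflammatory cytokines. IRF2 binds the same DNA sites as IRF1 and was first described as its antagonist. BCL6 is a zinc-finger repressor, best known from germinal-centre B cells, that recognises sites resembling those of STATs. Much of this signalling runs through protein modification, which messenger RNA does not show.

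Promoter sequences are shown because the family's own DNA sites occur in some of its promoters. RefSeq (build GRCr8) had an entry for 8 of the 9 genes, each reaching from 250 bases before the annotated start to 50 bases after it; Irf2 had no entry. Both strands were searched for the STAT site TTCNNNGAA and the BCL6 site TTCCTAGAA, which is one case of the STAT site, both as commonly described for these factors and not derived from these data. Irf1 and Irf9 held a match, and their promoters follow 5′ to 3′ on the gene's strand, with matches in capitals. They lie at chr10:38417685-38417984 and chr15:33065586-33065885, both on the plus strand.
Irf1: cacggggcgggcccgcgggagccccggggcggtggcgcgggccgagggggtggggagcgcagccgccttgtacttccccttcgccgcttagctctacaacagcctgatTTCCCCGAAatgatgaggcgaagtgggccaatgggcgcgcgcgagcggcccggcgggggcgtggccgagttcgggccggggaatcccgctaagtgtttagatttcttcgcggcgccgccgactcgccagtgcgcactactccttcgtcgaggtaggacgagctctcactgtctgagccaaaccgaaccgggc
Irf9: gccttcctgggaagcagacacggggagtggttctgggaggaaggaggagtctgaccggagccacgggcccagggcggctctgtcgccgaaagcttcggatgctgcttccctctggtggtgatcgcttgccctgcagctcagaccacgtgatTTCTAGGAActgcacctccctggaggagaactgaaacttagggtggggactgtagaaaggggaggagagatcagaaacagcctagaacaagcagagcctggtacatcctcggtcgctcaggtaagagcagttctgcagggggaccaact

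In the Irf1 promoter the STAT site TTCCCCGAA began at position -142 from the start. In the Irf9 promoter TTCTAGGAA at -99 matched both the STAT site and, on the other strand, the BCL6 site. Of all 27457 rat promoters of this length, 8.68% held the STAT site and 0.364% the BCL6 site. These are letter matches only, and no binding was measured here.

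Irf2 and Irf1 rose with uric acid. Of the 9 genes, 8 had a mean of at least 1 FPKM (fragments scaled for transcript length and library size) over the 6 libraries and were tested, and 2 of the 8 passed, both higher. Over all 12460 tested features, 7.98% were called, 4.99% higher and 2.99% lower, by edgeR's quasi-likelihood test at a Benjamini-Hochberg adjusted p under 0.05. The median log2 fold change was 0.23 over the 8 genes and 0.00 over all tested features. In 7 of the 8 the FPKM of the groups did not overlap, 6 of them with uric acid above untreated, whereas over all tested features the share was 31.0% (16.8% with uric acid above untreated and 14.2% below). The 9 genes were named with earlier results of these data known, so these counts are a description.

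**Figure D1:**
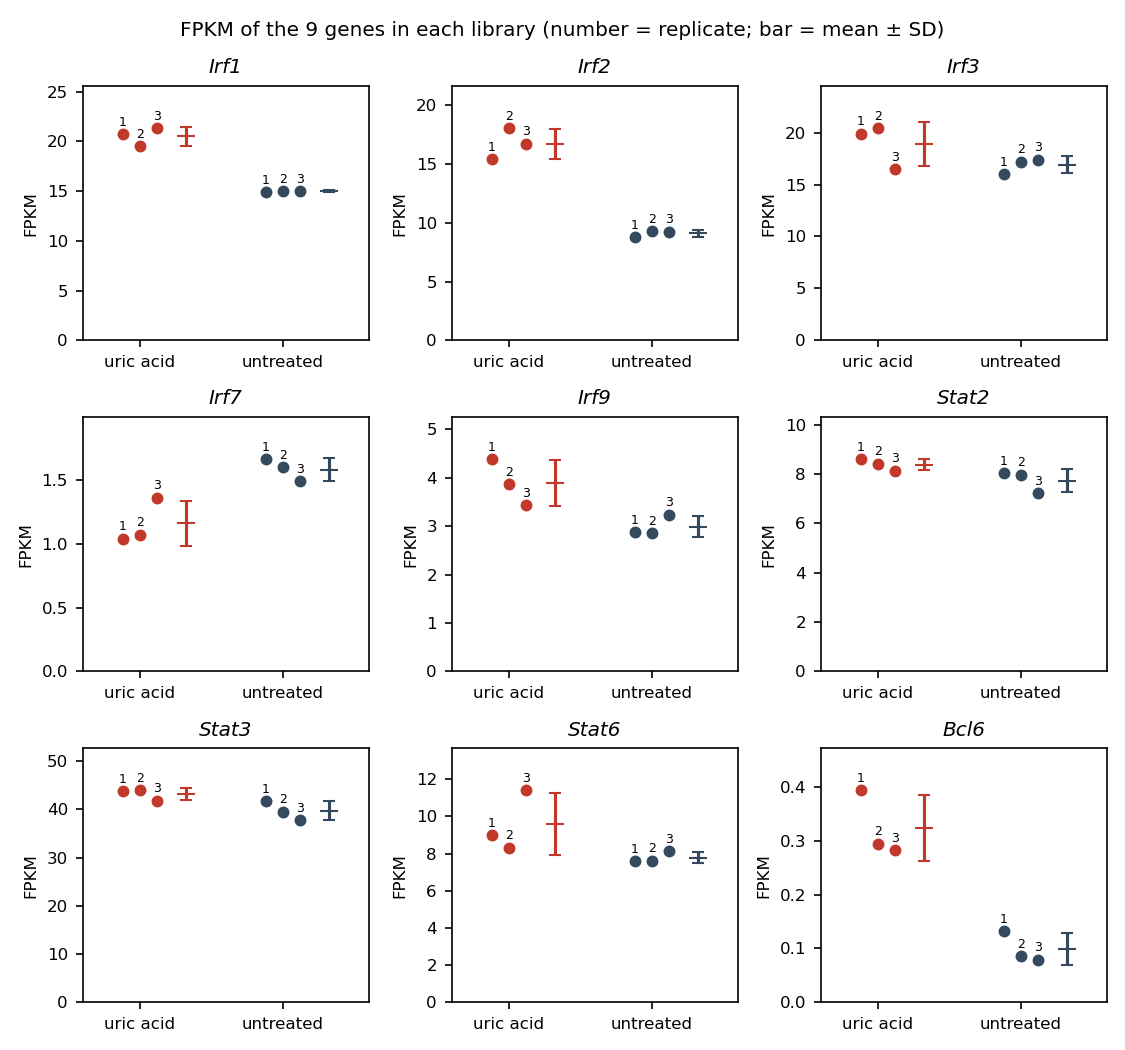
FPKM of each of the 9 genes in the uric acid (red) and untreated (dark) libraries, with the replicate number above each point and the mean ± SD beside it. Each panel has its own axis from 0. Irf1, Irf2 and Bcl6 show the widest gaps between the groups, Irf7 is the gene with uric acid below untreated, and the groups of Irf3 overlap.

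Irf2 had 15.4, 18.0 and 16.7 FPKM in uric acid libraries 1, 2 and 3, against 8.77, 9.30 and 9.22 FPKM in untreated libraries 1, 2 and 3. Every uric acid library lay above every untreated one by a margin larger than the spread within either group. The means were 16.7 ± 1.28 FPKM with uric acid and 9.09 ± 0.285 FPKM untreated (SD, n = 3 each), a 1.84-fold rise. The edgeR log2 fold change was 0.88 ± 0.09 (SE, adjusted p = 0.000875). Irf2 passed in each of the 16 alternative fits, with a log2 fold change between 0.81 and 0.94. In the deposited table it is ENSRNOG00000009824, on the minus strand of chromosome 16 from 48582026 to 48732932, with 2 transcripts. No source used here names the genome build of these positions.

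Irf1 had 20.7, 19.5 and 21.3 FPKM in the uric acid libraries and 14.9, 15.0 and 15.0 FPKM in the untreated libraries. The untreated libraries were nearly equal, and all 3 uric acid libraries lay above them. Means were 20.5 ± 0.925 FPKM with uric acid and 15.0 ± 0.0703 FPKM untreated (SD, n = 3 each), a 1.37-fold rise, with a log2 fold change of 0.45 ± 0.07 (SE, adjusted p = 0.00851 by edgeR). The call was lost without untreated library 2 (adjusted p = 0.0621) and, by a narrow margin, without uric acid library 1 (adjusted p = 0.0501), while the log2 fold change stayed between 0.43 and 0.48 in all 16 alternatives. Irf1 (ENSRNOG00000008144) lies on the plus strand of chromosome 10 from 39109522 to 39116531.

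Because the fold change of Irf2 exceeded that of Irf1, the level of Irf1 relative to its antagonist was also compared, a quantity chosen after the values were seen. The ratio of Irf1 FPKM to Irf2 FPKM was 1.34, 1.08 and 1.28 in the uric acid libraries and 1.70, 1.62 and 1.62 in the untreated libraries. It averaged 1.23 ± 0.135 with uric acid and 1.65 ± 0.046 untreated (SD, n = 3 each), without overlap. The exact two-sided permutation test gave p = 0.1, the smallest that 3 libraries against 3 allow. Groups without overlap always reach that value, so the test adds nothing to the separation itself. Irf1 was the more abundant message of the pair per unit of length in every library.

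**Figure D2:**
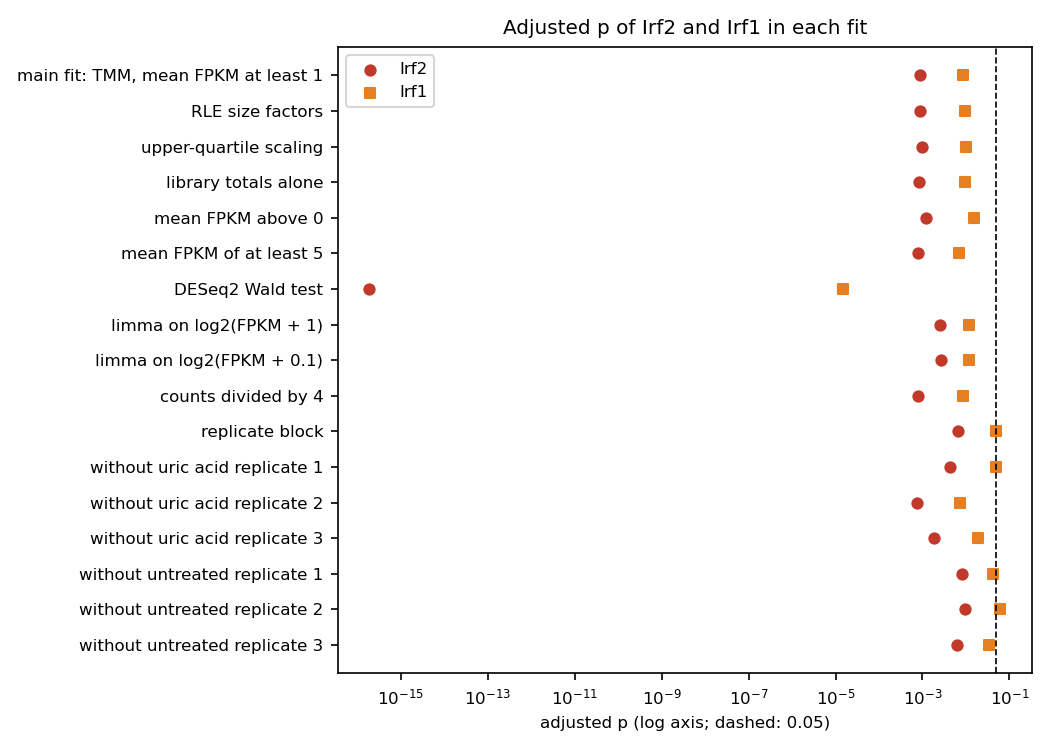
Adjusted p (log axis) of Irf2 (circles) and Irf1 (squares) in the fit reported in the text, at the top, and in the 16 alternatives below it; the dashed line marks 0.05. All points of Irf2 lie left of the line, with 0.00949 as the highest, and Irf1 crosses it when untreated library 2 or uric acid library 1 is dropped.

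Irf3 and Irf7, which act below the nucleic acid sensors, did not pass. Irf3, present in most cell types without induction, had 19.9, 20.4 and 16.5 FPKM with uric acid and 16.0, 17.2 and 17.4 FPKM untreated. Uric acid library 3 lay among the untreated libraries while the other 2 lay above them, and the log2 fold change was 0.16 ± 0.10 (SE, adjusted p = 0.354 by edgeR). Irf7, the factor that amplifies the interferon response and is itself interferon-induced, was the least abundant of the tested genes, at 1.04, 1.07 and 1.36 FPKM with uric acid and 1.66, 1.6 and 1.49 FPKM untreated. Uric acid library 3 came closest to the untreated group, but the groups did not overlap, and Irf7 was the only one of the 8 with a negative log2 fold change, at -0.45 ± 0.19 (SE, adjusted p = 0.186). Its estimated counts were 122, 106 and 149 with uric acid and 237, 201 and 172 untreated.

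Reads of overlapping genes could enter these values, since no source used here states the strand setting of the counting. Irf7 overlaps Phrf1 on the other strand by 65 bases, and Phrf1 itself fell (log2 fold change -0.43, edgeR adjusted p = 0.0253). Irf3 overlaps Bcl2l12 on the other strand by 865 bases, where Bcl2l12 averaged 0.468 FPKM. Stat6 overlaps Nab2, also on the other strand, by 2910 bases, with Nab2 at 8.74 FPKM and a log2 fold change of 0.05 (edgeR adjusted p = 0.782). The part of these overlaps in the values of Irf7, Irf3 and Stat6 was not tested. The other 6 genes overlap no listed feature.

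Irf9, the DNA-binding subunit of the interferon complex, did not pass either. It had 4.38, 3.87 and 3.43 FPKM in the uric acid libraries and 2.88, 2.85 and 3.24 FPKM in the untreated libraries. The groups did not overlap, though uric acid library 3 and untreated library 3 lay close together. The log2 fold change was 0.38 ± 0.16 (SE, adjusted p = 0.167 by edgeR), nearly as large as that of Irf1 but with a wider standard error.

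The STAT members had small positive differences, and none passed. Stat3, the factor of the interleukin-6 family of cytokines, was the most abundant of the 9, with 43.7, 43.9 and 41.8 FPKM with uric acid and 41.7, 39.5 and 37.8 FPKM untreated. The lowest uric acid library and the highest untreated library were almost level, and the log2 fold change was 0.12 ± 0.06 (SE, adjusted p = 0.26 by edgeR). Stat2, a subunit of the same interferon complex as IRF9, had 8.60, 8.43 and 8.14 FPKM with uric acid and 8.04, 7.98 and 7.22 FPKM untreated. Its log2 fold change was also 0.12, with an SE of 0.08 (adjusted p = 0.384).

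Stat6, the factor of interleukin-4 and interleukin-13, was the most uneven of the STATs, at 8.99, 8.32 and 11.4 FPKM with uric acid and 7.60, 7.63 and 8.12 FPKM untreated. Uric acid library 3 stood well above the other 2, and uric acid library 2 came close to untreated library 3. The log2 fold change was 0.30 ± 0.12 (SE, adjusted p = 0.158 by edgeR), which became 0.16 when uric acid library 3 was dropped and 0.39 when uric acid library 2 was.

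Bcl6 had the widest relative difference of the 9 genes but lay under the limit for testing. It had 0.393, 0.294 and 0.282 FPKM in the uric acid libraries and 0.132, 0.0860 and 0.0791 FPKM in the untreated libraries. Every uric acid library stood clear above the highest untreated one, and the mean level was 3.25 times as high with uric acid. These are few reads: the estimated counts were 79, 50 and 53 with uric acid and 33, 19 and 16 untreated, and how many of these 1 read pair adds is not stated. When all 19289 features were tested in edgeR, Bcl6 had a log2 fold change of 1.67 ± 0.38 (SE, adjusted p = 0.0428), where 2.42% of the features were called higher. With the counts also divided by 4 the adjusted p was 0.0383, and DESeq2 gave an unadjusted p of 0.000852 with no adjusted value. The call was lost in that fit without each of the 6 libraries in turn. Dropping uric acid library 1, 2 or 3 gave an adjusted p of 0.174, 0.0718 or 0.0543, dropping untreated library 1, 2 or 3 gave 0.0827, 0.177 or 0.115, and the log2 fold changes ran up to 1.91 from a lowest of 1.5.

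**Figure D3:**
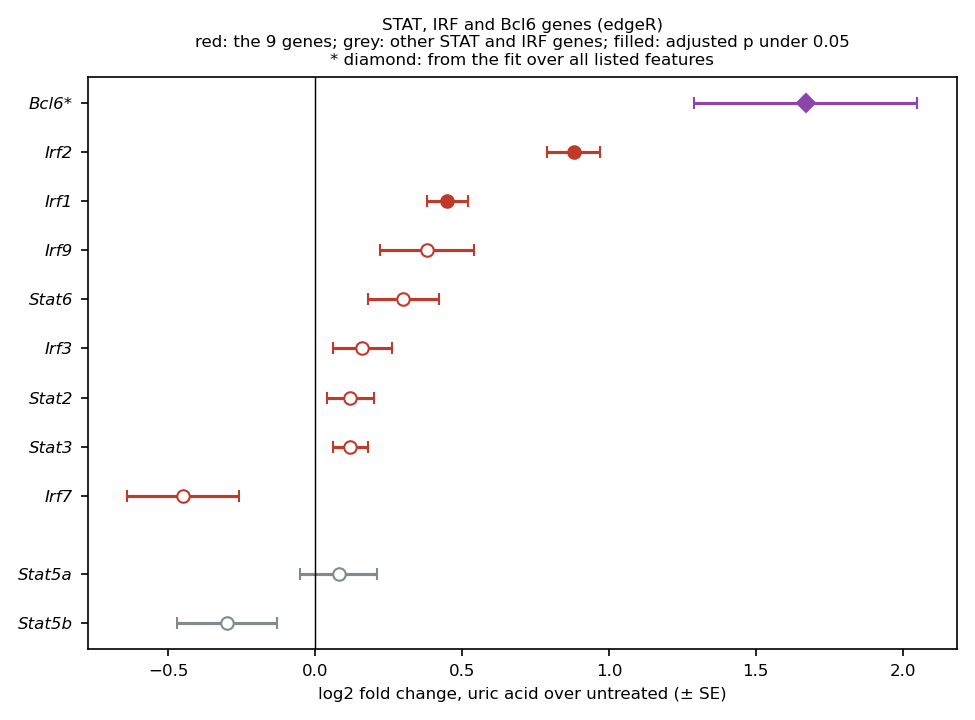
Log2 fold change, uric acid over untreated, with its SE, for the 9 genes (red; Bcl6, a purple diamond, comes from the fit over all features) and for 2 further tested genes of these families, Stat5a and Stat5b (grey). Filled symbols have an adjusted p under 0.05. Irf2, at 0.88, has an interval of ± 1 SE above those of the other tested genes shown, and Irf7 lies lowest at -0.45.

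Ordered by untreated level, with FPKM allowing comparison between genes per length, the 9 genes ran Stat3, Irf3, Irf1, Irf2, Stat6, Stat2, Irf9, Irf7, Bcl6. Neighbours in this order did not overlap among the untreated libraries except Stat6 and Stat2. With uric acid the means ran Stat3, Irf1, Irf3, Irf2, Stat6, Stat2, Irf9, Irf7, Bcl6, and the neighbours Irf1 and Irf3, Irf3 and Irf2, and Stat6 and Stat2 overlapped. Irf2 thus overlapped Irf3 in the uric acid libraries (means of 16.7 FPKM for Irf2 and 18.9 FPKM for Irf3), whereas in untreated cells it lay next to Stat6, at means of 9.09 FPKM for Irf2 and 7.78 FPKM for Stat6.

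Of 5 further STAT and IRF genes described here, 2 were tested and edgeR called neither, with none at an unadjusted p under 0.05. Stat5b and Stat5a, which serve growth hormone and prolactin, were the tested ones. Stat5b had 11.2, 9.12 and 15.4 FPKM with uric acid and 16.2, 14.2 and 13.6 FPKM untreated, so that uric acid library 3 lay among the untreated libraries. Its log2 fold change was -0.30 ± 0.17 (SE, adjusted p = 0.299 by edgeR), and without uric acid library 3 it was -0.52 and was called (adjusted p = 0.0306). Stat5a averaged 3.72 ± 0.306 FPKM with uric acid and 3.52 ± 0.41 FPKM untreated (SD, n = 3 each). Irf5 averaged 0.514 and 0.58 FPKM with uric acid and untreated, and the lymphoid and myeloid factors Irf4 and Irf8 averaged at most 0.0637 FPKM in either group, Irf8 being listed at 0 in 4 of the 6 libraries.

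Some of these genes are neighbours. Stat5b, Stat5a and Stat3 follow one another on chromosome 10, with 9902 bases between Stat5b and Stat5a and 1350 bases between Stat5a and Stat3, and none of the 3 was called. Stat2 lies 2868 bases from Il23a, a cytokine subunit on the other strand, which rose (log2 fold change 2.46, edgeR adjusted p = 0.0139). Irf3 lies 547 bases from Scaf1, also on the other strand, which fell (-0.30, edgeR adjusted p = 0.0431). Il23a and Scaf1 were chosen for mention after their values were seen, and their values in the alternative fits are not given here. The KEGG terms shared by the most members, 5 each, are of viral infection, such as Hepatitis C and Measles. Among the further shared terms, Stat2, Stat3, Stat6 and Irf9 share the Jak-STAT signaling pathway, and Stat3 and Bcl6 share the FoxO signaling pathway.

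The pathway lists that follow can be read against the shares over all tested features. Beside the 7.98% called by edgeR, 25.7% had an unadjusted p under 0.05 in edgeR, DESeq2 called 14.7% of the features to which it gave an adjusted p, and limma on log2(FPKM + 1) called 6.59%.

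Upstream of the STATs, 1 of 17 tested JAK kinases and receptor chains rose and none fell, a share near that over all features, with a median log2 fold change of 0.02. Il6r, the interleukin-6 receptor, rose to 11, 10.1 and 10.8 FPKM with uric acid, against 8.50, 8.28 and 8.70 FPKM untreated (log2 fold change 0.32 ± 0.07 SE, adjusted p = 0.0306 by edgeR). Dropping any 1 untreated library ended this call (adjusted p = 0.0927, 0.158 and 0.0637 for libraries 1, 2 and 3), as did dropping uric acid library 1 (0.118), testing all features (0.0505) or using limma on log2(FPKM + 1) (0.0543) or log2(FPKM + 0.1) (0.053). Il6st, the chain that carries the signal of the interleukin-6 family, had 23.2, 16.8 and 25.1 FPKM with uric acid and 33.8, 29.2 and 21.9 FPKM untreated, overlapping groups (log2 fold change -0.38, adjusted p = 0.2). Jak1, the kinase shared by most of these receptors, had a log2 fold change of 0.04 (adjusted p = 0.786), and Ghr, the growth hormone receptor, of 0.02 (0.867).

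Ligands were mostly too low to test. Among 7 listed, 2 were tested, Cntf at a log2 fold change of 0.33 (edgeR adjusted p = 0.12) and Il11 at 0.68 (0.186). Il6 was listed at 0 in 5 of 6 libraries.

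Inhibitors of the pathway gave no call in edgeR among 17 tested, with a median log2 fold change of -0.01. Without adjustment 3 had a p under 0.05, while DESeq2 called 2 and limma none, no larger shares than over all features. Dropping uric acid library 3 gave 3 calls, a larger share than the 1173 of all 12460 tested features called in that fit. The 2 of DESeq2 were Ptpn1, a phosphatase that acts on JAK2, at a log2 fold change of -0.42 in edgeR (adjusted p = 0.0636), and Pias3, an inhibitor of STAT3, at -0.35 (0.0579); Ptpn2, at 0.31 (0.125), joined them without that library. The abundant members Ptpn11, a phosphatase, and Pias2, a SUMO ligase, had log2 fold changes of -0.01 (edgeR adjusted p = 0.971) and 0.02 (0.888). Socs3, the feedback inhibitor induced by STAT3, averaged 4.57 ± 0.454 FPKM with uric acid and 4.0 ± 0.424 FPKM untreated (SD, n = 3 each; log2 fold change 0.19, edgeR adjusted p = 0.536). Socs3 and the genes Il6st, Il6 and Isg15 were chosen for mention after their values were seen, as were Ptpn1, Ptpn2, Pias3, Traf3, Sting1, Samhd1, Gbp5, Bcorl1, Rsad2, Mx1, Ifit1, Cxcl10, Pim1, Foxo1 and Foxo3.

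The sensors, adaptors and kinases upstream of IRF3 and IRF7 gave no call in edgeR either, among 14 tested, with 3 at an unadjusted p under 0.05, a smaller share than over all features. DESeq2 called 2, a share near that over all features, and limma none. Dropping uric acid library 3 also gave 2 calls, a larger share than the 1173 of all 12460 tested features called in that fit. Both times these were the adaptors Traf3, at a log2 fold change of -0.37 in edgeR (adjusted p = 0.0961), and Sting1, at 0.40 (0.103). The kinases Irak1 and Tbk1 had log2 fold changes of -0.05 (edgeR adjusted p = 0.649) and -0.08 (0.521).

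Interferon-stimulated genes, the output of the complex that holds STAT2 and IRF9, gave no call in edgeR. The table held 47, of which 30 were tested, 4 had an unadjusted p under 0.05, DESeq2 called 1 and limma none, all smaller shares than over all features, and 1 was called when untreated library 3 was dropped. The first was Samhd1, which breaks down nucleotides, at a log2 fold change of -0.69 in edgeR (adjusted p = 0.0974), and the other Gbp5, a guanylate-binding protein, at 0.78 (0.161). Their median log2 fold change was -0.10. The 17 genes under the limit include Isg15, a ubiquitin-like protein, at 1.0, 0.773 and 0.796 FPKM with uric acid and 1.28, 0.946 and 0.926 FPKM untreated, and Rsad2, an antiviral enzyme, at 0.573 ± 0.0824 FPKM with uric acid and 0.454 ± 0.0804 FPKM untreated (SD, n = 3 each). Mx1 and Ifit1, further antiviral genes, averaged at most 0.0349 FPKM in either group. Among those tested, Ifi27 had 268, 298 and 263 FPKM with uric acid and 222, 231 and 259 FPKM untreated (log2 fold change 0.22, edgeR adjusted p = 0.144), groups that just failed to overlap. Ifitm2 had a log2 fold change of 0.00 (0.984), and Cxcl10, a chemokine, of 0.60 (0.122).

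**Figure D4:**
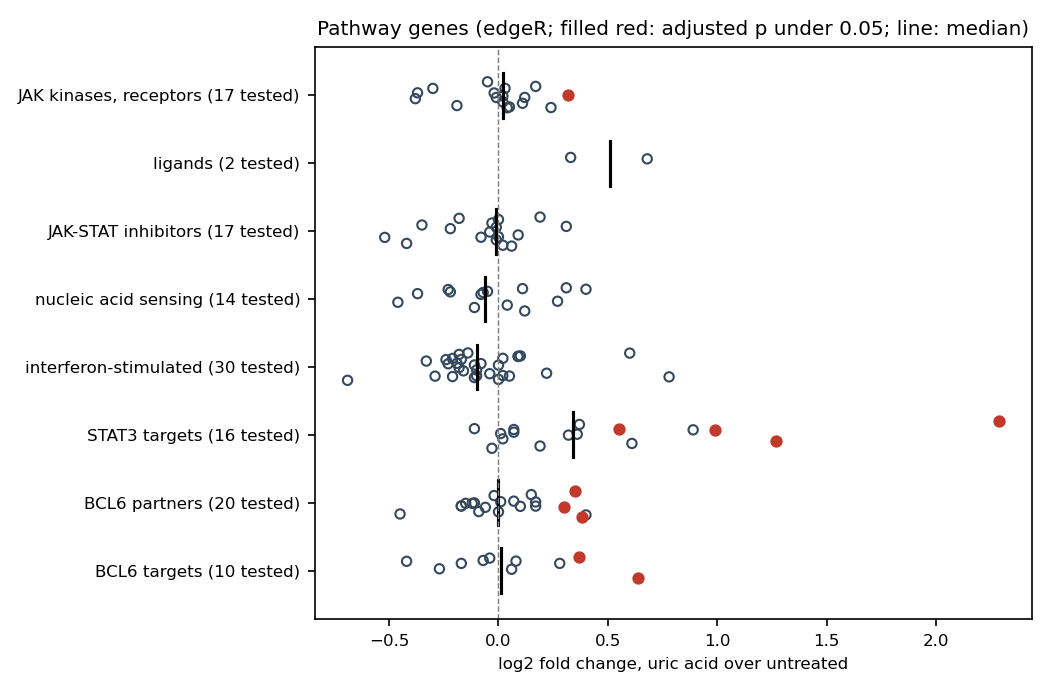
Log2 fold change, uric acid over untreated, of the tested genes in 8 pathway lists, with filled red points for an adjusted p under 0.05 and a line at each list's median. No filled point lies below 0. The interferon-stimulated genes hold no filled point, and the STAT3 targets have the highest median among lists with more than 2 tested genes, at 0.34.

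Among genes described as STAT3 targets 4 of 16 rose and none fell, with a median log2 fold change of 0.34. Myc, a growth-promoting factor, had 5.33, 9.77 and 3.73 FPKM with uric acid and 1.52, 1.0 and 1.29 FPKM untreated (log2 fold change 2.29 ± 0.33 SE, edgeR adjusted p = 0.00537). Bcl3, an inhibitor-like partner of NF-kB, had 2.78, 3.00 and 2.09 FPKM with uric acid and 0.987, 1.22 and 1.03 FPKM untreated (1.27 ± 0.20, adjusted p = 0.00785). In both genes all uric acid libraries lay above all untreated ones, and both passed with any 1 library left out. Cebpb, a stress and cytokine factor, rose by 0.99 ± 0.18 (adjusted p = 0.015), and Pim3, a survival kinase, by 0.55 ± 0.11 (0.018). Those calls were lost on dropping uric acid library 1 (adjusted p = 0.0633 for Cebpb, 0.0616 for Pim3), untreated library 1 (0.0679 for Cebpb, 0.0636 for Pim3) and untreated library 2 (0.0813 for Cebpb, 0.1 for Pim3), so that 2 of the list were then called. Pim1, a related kinase, had a log2 fold change of 0.61 (0.0533). It was called higher by DESeq2 (adjusted p = 0.013) and by limma on log2(FPKM + 1) (0.0474) and log2(FPKM + 0.1) (0.0481), which each called 5 of the list. The abundant Vegfa and Pim2 had 0.07 (0.587) and 0.01 (0.97) in edgeR. These genes answer to many factors, and the list was assembled with results of these data known.

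Corepressors, relatives and regulators of BCL6, here called its partners, gave 3 calls among 20 tested, all higher, with a median of 0.00. Hdac5, a histone deacetylase, had 61.0, 65.6 and 59.6 FPKM with uric acid and 45.2, 49.8 and 48.2 FPKM untreated (log2 fold change 0.38 ± 0.07 SE, edgeR adjusted p = 0.0146). Cul3, a ubiquitin ligase scaffold, rose by 0.30 (0.0372), and Tbl1xr1, a corepressor subunit, by 0.35 (0.0401). No partner was called after dropping untreated library 1 or 2 or uric acid library 1, and 1 was called after dropping untreated library 3. Cul3 and Tbl1xr1 were also lost when all features were tested (0.0617 for Cul3, 0.0657 for Tbl1xr1) and in limma on log2(FPKM + 1) (0.059 for Cul3, 0.108 for Tbl1xr1), which left Hdac5 alone. DESeq2 called 4 partners, the further one being Bcorl1, a corepressor, which was lower (log2 fold change -0.46, adjusted p = 0.0489) and was also called lower in edgeR without uric acid library 3 (-0.63, 0.0329). Hdac1 and Ctbp1, the most abundant partners not called, had log2 fold changes of -0.12 (0.306) and -0.09 (0.38). Foxo1 and Foxo3, factors that can induce Bcl6, had -0.15 (0.551) and 0.40 (0.295). Without uric acid library 2 Foxo3 was called higher in edgeR (0.63, adjusted p = 0.043).

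Of 10 tested genes described as repressed by BCL6, mainly in human and mouse B cells, 2 rose and none fell, with a median log2 fold change of 0.01. Cdkn1b, a cell-cycle inhibitor, had 97.2, 104 and 86.7 FPKM with uric acid and 70.9, 75.7 and 76.5 FPKM untreated (0.37 ± 0.08 SE, edgeR adjusted p = 0.028). Cxcr4, a chemokine receptor, rose by 0.64 (0.0331). After dropping any 1 untreated library or uric acid library 1 none of the list was called, and 1 was after dropping uric acid library 2. Ccnd2 and Socs2, the most abundant members not called, had -0.27 (0.37) and 0.06 (0.678).

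As a description over the 6 libraries, the genes whose log2 CPM followed each tested member most closely were listed, 3 for each member, from 10928 compared. For Irf2 these were Septin10, Ccdc28a and Hbp1 (Pearson's r of 0.998, 0.997 and 0.997), and 316 genes had an r above 0.95. For Irf1 they were Klhl24, Wdr91 and Chd2 (0.998, 0.997 and 0.995), with 198 genes above 0.95. Irf9 followed Lgals1, Elk3 and Stambp, Irf3 followed Eef1akmt2, Aunip and Ube2d2, and Irf7 followed Tmed8, Ccnt1 and Tbrg4, with r between 0.987 and 0.997. Stat2 followed Vps35, Nol8 and Cyp4f17, Stat3 followed Parvb, Gphn and Xpot, and Stat6 followed Sh3rf1, Tmem231 and Strn4, with r between 0.983 and 0.992. The 6 points share their treatment and their libraries, and no test was made.

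Summed estimated counts ran from 41191819 to 48875962 in the uric acid libraries and from 47858248 to 59092982 in the untreated libraries. All 10 beta-cell markers averaged at least 1 FPKM. Of these Mafa, a beta-cell transcription factor, fell to 282 ± 29.5 FPKM with uric acid, against 389 ± 16.8 FPKM untreated (SD, n = 3 each; log2 fold change -0.46, edgeR adjusted p = 0.0129), a call that ended on dropping library 1 of uric acid (0.071) or of the untreated group (0.0564). The other 9 were not called in that fit, though uric acid lay below untreated without overlap in Pdx1 and Nkx6-1 and above it in Neurod1 and Slc2a2. DESeq2 also called Pdx1 (log2 fold change -0.26, adjusted p = 0.0219) and Iapp (-0.28, 0.0337) lower. Pdx1 was called lower in edgeR without uric acid library 3 too (-0.31, 0.0405). The part of this in the values of Irf1, Irf2 and Bcl6 was not tested. Of the markers of other cells, Gcg, the glucagon gene, averaged 9.0 FPKM with uric acid and 8.6 FPKM untreated. Pdgfra, a fibroblast receptor, averaged 1.91 FPKM with uric acid and 1.4 FPKM untreated (log2 fold change 0.45, adjusted p = 0.0501 by edgeR and 0.00942 by DESeq2). The other fibroblast markers, Col1a1, Col3a1, Dcn and Lum, averaged under 1 FPKM, each lower with uric acid but with overlapping groups. Summed fibroblast markers gave 2.36 to 3.15 FPKM with uric acid and 2.26 to 3.37 FPKM untreated. None of 8 leukocyte or 2 endothelial markers averaged 1 FPKM, the summed level of the leukocyte markers being 0.752 to 2.42 FPKM with uric acid and 0.662 to 1.79 FPKM untreated. In bulk libraries a change in the share of cells that express a gene and a change in RNA per cell cannot be told apart.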

How the data were processed

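Polyadenylated RNA of 6 INS-1E libraries was sequenced as read pairs of 150 bases, per the labels' protocols. The tools named, without roles, in the submitters' processing notes are StringTie 1.3.4d, HISAT2 2.0.4, cutadapt 1.9, edgeR and DESeq2; build and strand setting are not given in the sources used here. The deposited table holds FPKM values and whole-number counts per library, per the file headers. The deposited counts were taken as estimated counts because StringTie is the one quantifier named; the files do not say how many counts 1 pair adds.

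Counts of features with a mean of at least 1 FPKM (12460; 6829 were left out) were compared in edgeR 4.0.16 (R 4.3.3; TMM scaling, quasi-likelihood F test, no covariate), two-sided, with Benjamini-Hochberg adjustment over all tested features. Alternatives were 3 other scalings, 2 filters, DESeq2 1.42.0, limma 3.58.1 on log2(FPKM + 1) and log2(FPKM + 0.1), counts divided by 4, the replicate number as a block, and each library left out. The test was tried on counts simulated with the common variation given below for every feature. There 67, 67 and 66 of 12460 features were changed by 0.5, 1.0 and 2.0 in log2, together fewer than the 994 called in the data. Recovery was not looked at apart for features with few counts. Over features of all levels, the test recovered 40.3% of those changed by 0.5 and 98.5% of those changed by 1.0 or 2.0. Changes of 0.5 or less can therefore be missed. The common biological coefficient of variation was 0.127 and the standard error of log2 fold changes had a median of 0.113.

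Members and pathway lists were chosen with earlier results of these data known. Of 201 listed pathway genes 174 were in the table, 1 of them under an older symbol; some further genes of the lists are not reported here, and the list counts leave them out. Named were all members, the other STAT and IRF genes of the lists, up to 5 called genes of each list by smallest p with its 2 most abundant genes not called, and the 3 closest followers of each tested member. Fits over all features for Bcl6 other than the plain edgeR fit were added after its level was seen.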

Additional observations from a re-analysis of the deposited data

How the results depend on the processing

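The 8 tested genes kept their direction in every alternative that tested them, and Irf2 and Irf1 were the 2 called in all except the fits without untreated library 2 or uric acid library 1, which kept Irf2 alone, and the fit over all features, where Bcl6 joined them. Leaving out 1 library gave 1 to 2 of the genes called, 2 to 16 pathway genes and 231 to 1173 of all features. Such fits have fewer residual degrees of freedom. With all libraries 994 features were called, and 10 of 125 tested pathway genes, a share near the 7.98% over all tested features. DESeq2 called 1765 features and 17 pathway genes (5 of them lower), and the fit over all features 7 pathway genes. Same-numbered libraries of the groups did not deviate together (r = 0.0684, -0.0492 and -0.19 for numbers 1, 2 and 3), and not every library correlated best with its own number. These values gave no sign that the numbers pair the libraries, but they cannot exclude it. With the replicate block in edgeR 322 features and 2 pathway genes, Myc and Bcl3, were called, and Irf2 (adjusted p = 0.00657) and Irf1 (0.0492) still passed. The other pathway genes that edgeR called without the block were lost with it, among them Cebpb (0.0549) and Pim3 (0.0703). Bcl6 (16 to 79) and Irf7 (106 to 237) had the fewest estimated counts of the 9 genes.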
